A study of Mus musculus with 12 samples.

Results

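The 55 genes described here encode the DNA replication machinery and the regulators that switch on S phase. They were taken by name: every probe annotated with 1 of the 55 listed symbols, out of 34650 gene names on a mouse expression array. All 55 have a probe, and 53 passed the filter on dim probes. Ccne2, a cyclin E, and Chek1, a checkpoint kinase, were not well above background on any of the 12 arrays and were not tested. The 53 tested members were well above background on all 12 arrays, so none passed through 1 group alone.

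The study measured RNA from splenic B cells of female BALB/c mice aged 9 weeks. All cells, controls included, had been activated for 4 days with lipopolysaccharide (2 µg/ml) and an antibody to CD40 (10 µg/ml). The 4 groups hold 3 arrays each: STAT6 ko cells with IL-4 at 25 ng/ml (KO IL-4), STAT6 ko cells without it (KO control), wild type cells with IL-4 (WT IL-4) and wild type cells without it (WT control). The labels do not describe the knockout allele, and they call the samples triplicates without saying whether each came from its own mouse, so p-values may measure the spread between technical samples. The question put to these genes is how IL-4 changed their RNA when STAT6 was missing and when it was present.

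Replication begins at origins, where the origin recognition complex, Cdc6 and Cdt1 load the ring-shaped MCM helicase in G1. In S phase the helicase is activated together with GINS and Cdc45, polymerase alpha and primase lay down primers, polymerase epsilon copies the leading strand and polymerase delta the lagging strand, and the clamp PCNA, loaded by replication factor C, keeps the polymerases on DNA. Most of these genes are known targets of E2F factors: RB family proteins hold E2F in check in resting cells, and cyclin-dependent kinases release it at the G1 to S transition. IL-4 is a cytokine of type 2 immunity that B cells sense through a receptor coupled to STAT6 and also to adaptor proteins of the insulin receptor substrate family.

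Promoter sequences are shown because an E2F motif is what many of these genes are known to share, and because members with it moved in different directions here. The promoter set used here (GRCm38.p6) holds promoters of 45 of the 55 members, 54 in all, each running from 250 bases before to 50 after a gene's start. Mcm4, Gins1, Gins2, Gins4, Rfc2, Prim2, Pole, Ccne2, Exo1 and Tipin are not in that set. A match to TTTCCCGC, TTTCGCGC, TTTGCCGC or TTTGGCGC, on either strand, was found in 19 of the 54 (35.2%) and in 2.27% of the 32851 promoters of all genes in that set. The CCAAT box (CCAAT, either strand, 59.3% of member promoters) was found in 37.4% of all promoters, the CHR element of mitotic genes (TTTGAA, either strand, 13.0%) in 17.9%, and the STAT6 site (TTC and GAA with 4 bases between them, the same on both strands, 5.56%) in 6.95%. TTTCGCGC and TTTGGCGC overlap where they meet on opposite strands, as in Mcm5. The median G+C content was 60.7% over the member promoters and 52.7% over all, and the part of base composition in these shares was not tested. These are matches of letters and not shown sites of binding. The 6 promoters below were picked from the members with a match that rose in KO cells, so as to include different results in WT cells. They run 5′ to 3′ on the gene's strand, with the E2F motif in capitals.
Mcm5, chr8:75109259-75109558, plus strand: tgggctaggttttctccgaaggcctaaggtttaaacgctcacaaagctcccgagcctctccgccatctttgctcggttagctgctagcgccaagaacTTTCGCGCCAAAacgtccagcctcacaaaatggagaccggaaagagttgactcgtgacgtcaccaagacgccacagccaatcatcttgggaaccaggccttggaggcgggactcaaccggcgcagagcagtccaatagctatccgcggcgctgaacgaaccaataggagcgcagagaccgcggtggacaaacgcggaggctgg
Mcm7, chr5:138171834-138172133, minus strand: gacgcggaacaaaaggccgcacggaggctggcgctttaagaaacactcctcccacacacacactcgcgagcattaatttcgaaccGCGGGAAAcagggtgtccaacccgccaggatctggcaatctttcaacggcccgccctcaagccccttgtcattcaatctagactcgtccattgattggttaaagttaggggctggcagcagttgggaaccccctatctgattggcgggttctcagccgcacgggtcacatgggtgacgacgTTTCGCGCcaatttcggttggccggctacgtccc
Uhrf1, chr17:56304063-56304362, plus strand: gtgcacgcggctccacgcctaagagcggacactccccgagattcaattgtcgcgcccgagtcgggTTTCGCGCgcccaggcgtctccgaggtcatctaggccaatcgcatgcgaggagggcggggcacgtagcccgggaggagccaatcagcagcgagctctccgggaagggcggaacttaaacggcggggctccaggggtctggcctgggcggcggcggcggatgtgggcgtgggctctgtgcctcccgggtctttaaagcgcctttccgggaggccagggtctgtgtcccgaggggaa
Pold1, chr7:44548766-44549065, minus strand: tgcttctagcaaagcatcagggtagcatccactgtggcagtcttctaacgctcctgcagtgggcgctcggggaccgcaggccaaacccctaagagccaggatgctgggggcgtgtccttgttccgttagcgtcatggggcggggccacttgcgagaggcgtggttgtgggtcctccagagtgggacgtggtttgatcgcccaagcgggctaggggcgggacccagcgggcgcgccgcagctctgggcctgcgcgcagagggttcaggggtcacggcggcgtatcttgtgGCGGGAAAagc
Dnmt1, chr9:20952574-20952873, minus strand: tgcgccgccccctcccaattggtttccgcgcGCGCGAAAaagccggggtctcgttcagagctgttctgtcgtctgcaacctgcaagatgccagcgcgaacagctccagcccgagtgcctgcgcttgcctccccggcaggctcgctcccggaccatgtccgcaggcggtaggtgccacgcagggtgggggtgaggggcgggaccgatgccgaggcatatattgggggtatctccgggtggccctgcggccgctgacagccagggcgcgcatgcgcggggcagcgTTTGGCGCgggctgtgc
Pole2, chr12:69228141-69228440, minus strand: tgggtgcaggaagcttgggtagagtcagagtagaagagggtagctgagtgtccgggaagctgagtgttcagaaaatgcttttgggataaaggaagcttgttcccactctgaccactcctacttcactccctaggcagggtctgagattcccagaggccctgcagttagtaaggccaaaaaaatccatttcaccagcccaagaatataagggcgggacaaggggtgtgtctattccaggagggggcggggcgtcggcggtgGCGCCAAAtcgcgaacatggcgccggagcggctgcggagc
With IL-4, all 6 genes rose in KO cells, while in WT cells Uhrf1 and Mcm7 fell, Pold1 and Pole2 rose, and Mcm5 and Dnmt1 did not pass the test. These 6 were picked for having the motif and for their different WT results. The motif's presence beside each kind of WT result was thus fixed by the choice, and how often it goes with each was not tested.

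Each value below is a log2 signal relative to the 75th percentile of its array, so a step of 1 is a doubling, and levels of different genes are not set against each other because their probes differ. Within groups, Pearson's r between arrays was 0.994 to 0.998 across the 16497 genes, which are not independent replicates. The median within-group SD of the members was 0.045 to 0.094. Slide 1 carried all WT arrays with KO controls 1 and 2, and slide 2 carried KO control 3 with the 3 KO IL-4 arrays, so slide goes with the KO response in part and fully separates KO IL-4 from WT IL-4. Stat6 itself was lower in KO controls than in WT controls by 1.94 on the log2 scale (adjusted p = 1.03e-06), with signal left on the 3 probes in KO cells. All 6 B cell markers were well above background on every array. So were 5 of 8 T cell markers, 2 of 5 NK cell markers, 5 of 8 macrophage and monocyte markers and 4 of 5 dendritic cell markers, and the part of other cells in the results was not tested. The T cell genes Cd8a and Cd8b1 and the NK cell genes Ncr1, Klrb1c and Klrd1 were well above background on no array.

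IL-4 raised most of the replication genes in B cells that lacked STAT6. Of the 53 members tested, 41 rose and 0 fell in KO cells (limma, adjusted p under 0.05), where 27.5% of all 16497 genes rose and 14.7% fell. At an unadjusted p under 0.05, too, 0 members fell. The median log2 difference over the members was 0.36, against 0.048 over all genes, and 51 of 53 were above 0. The changes were small in size: the largest, that of Pold1, was 1.90-fold, and no member reached 2-fold. In WT cells 9 members rose and 10 fell with the same cytokine. Both are smaller shares than those of all genes, of which 26.4% rose and 30.8% fell. The median of the members there was 0.011, against -0.041 over all genes. In RNA from whole cultures, a change in the number of cells in S phase and a change in RNA per cell cannot be told apart.

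**Figure D1:**
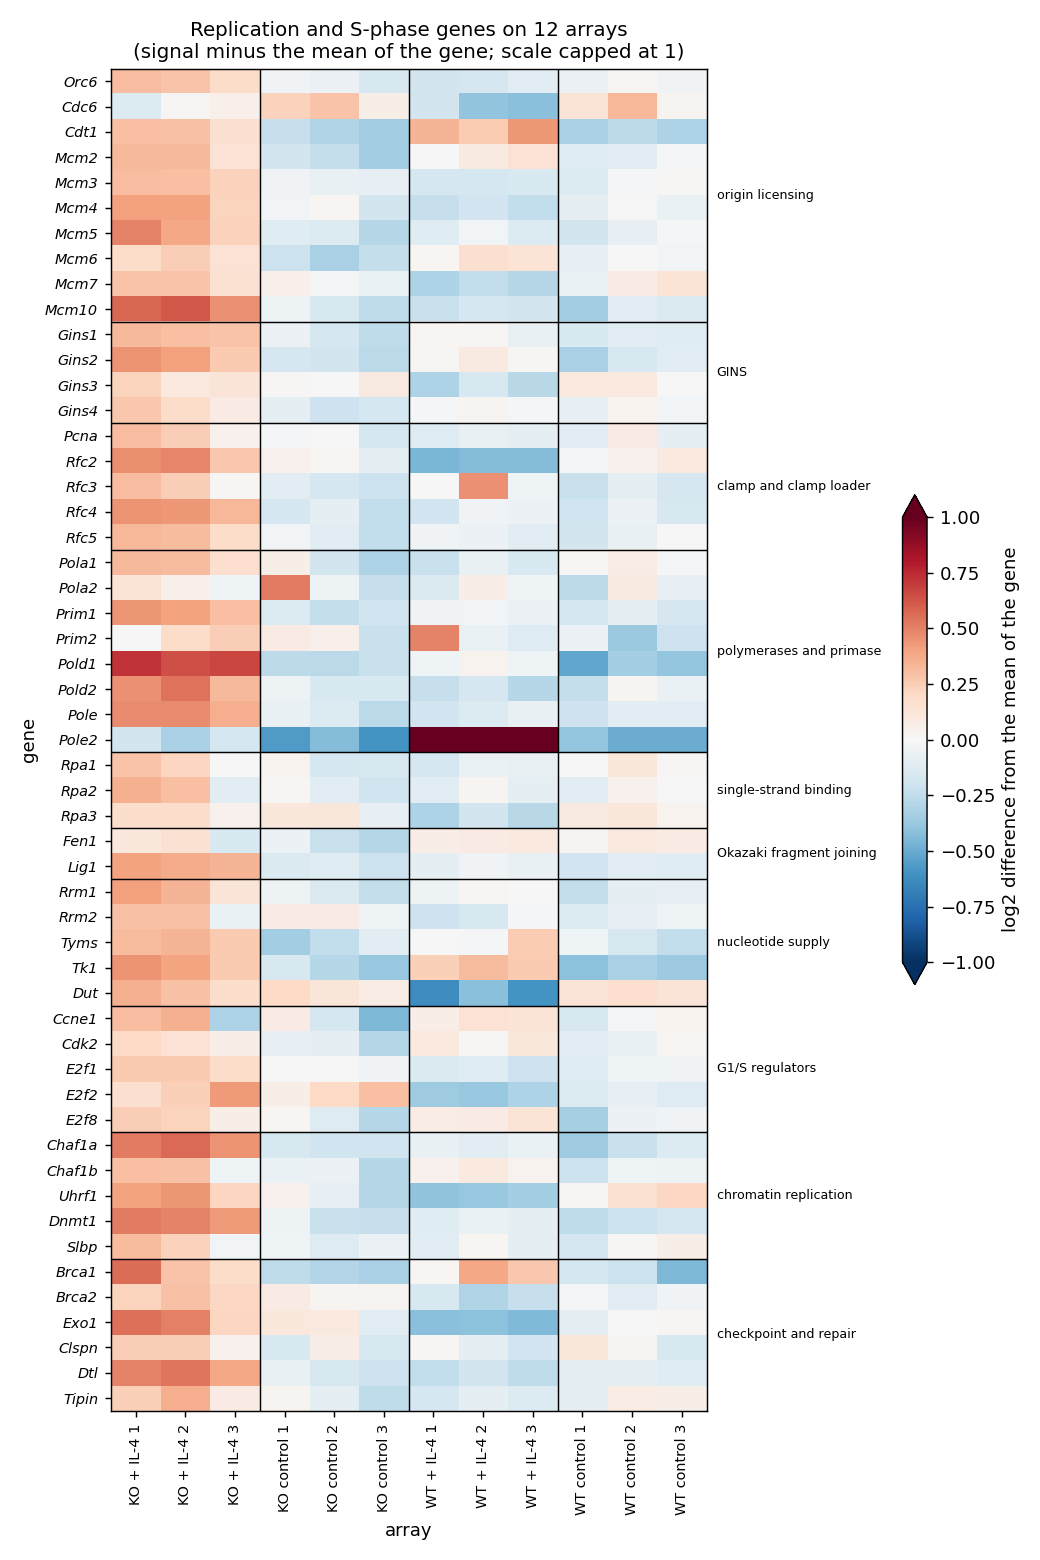
Log2 signal of the 53 tested members (rows, by role) on each of the 12 arrays (columns, by group), shown as the difference from the mean of the gene over the 12 arrays, with colours capped at 1 in each direction. The KO IL-4 arrays are red for most genes and the medians over members are 0.32, 0.30 and 0.18 there, against -0.22 to -0.041 on the other 9 arrays, while the dark red block in the Pole2 row is the WT IL-4 group.

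Read array by array, the median member stood 0.32, 0.30 and 0.18 above its own mean on KO IL-4 arrays 1, 2 and 3, and -0.052, -0.13 and -0.22 from it on the KO controls. On the WT IL-4 arrays the medians were -0.12, -0.066 and -0.096, and on the WT controls -0.13, -0.059 and -0.041. For 29 members all 3 KO IL-4 arrays lay above all 9 other arrays, which 10.3% of all genes tested also did. For 12 members (Brca2, Cdc6, Dut, E2f2, Exo1, Gins3, Mcm3, Mcm4, Mcm7, Rfc2, Rpa3 and Uhrf1) the WT IL-4 arrays lay below all others, as for 20.1% of all genes. For Pole2 alone they lay above all others, as for 17.7% of all genes. KO IL-4 array 3 was the lowest of its group for 47 of the 53 members, and KO control 3, on the same slide, for 42. On slide 1, WT control 1 was the lowest of its group for 41 and WT IL-4 array 1 for 30. Without KO IL-4 array 3 the count of members that rose in KO cells was 47, where 29.7% of all genes rose. Without KO IL-4 array 1, KO IL-4 array 2 or KO control 3 it was 35, where 21.8% to 23.3% of all genes rose.

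Markers of another cell state also changed with IL-4, in either genotype. Of 7 plasma cell markers, 6 were well above background on all 12 arrays and Tnfrsf17 on none, and their summed signal, in multiples of the 75th percentile, was 111 to 114 on the KO IL-4 arrays against 208 to 261 on the KO controls, and 234 to 239 on the WT IL-4 arrays against 234 to 248 on the WT controls. Prdm1, the repressor that drives plasma cell differentiation, fell by 1.69 on the log2 scale in KO cells and by 2.81 in WT cells. Igj and Derl3 gave -3.44 and -1.66 in KO cells and -5.82 and -3.07 in WT cells. Xbp1 gave -0.90 in KO cells and 0.87 in WT cells, Sdc1 0.10 (not called) and 0.76, and Irf4 0.23 and 0.29. The summed signal thus mixes markers that rose with markers that fell. Of the 6 tested markers, 1 rose and 4 fell in KO cells, and 3 rose and 3 fell in WT cells. The summed macrophage and monocyte markers stood at 40.5 to 43.8 on the KO IL-4 arrays against 35.7 to 39.2 on the KO controls, and at 23.9 to 24.9 on the WT IL-4 arrays against 35.1 to 36.7 on the WT controls. The part of either list in the results of the members was not tested.

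Set side by side, the responses of the genotypes share no array. Of the 41 members that rose in KO cells, 9 also rose in WT cells, which are all 9 of the WT risers: Brca1, Cdt1, Chaf1a, Gins2, Mcm6, Pold1, Pole2, Tk1 and Tyms. Another 5 fell in WT cells (Brca2, Exo1, Mcm7, Rfc2 and Uhrf1), and 27 passed no test there. The other 5 that fell in WT cells (Cdc6, Dut, E2f2, Gins3 and Rpa3) did not pass in KO cells, and 7 passed in neither (Ccne1, Clspn, Fen1, Pola2, Prim2, Rpa2 and Rrm2). The difference between the responses was itself tested. It passed for 36 members, with the KO response above the WT response in 35, where 28.3% of all genes had this, and below it in 1, Pole2, where 16.4% did. The median difference was 0.36 over the members and 0.097 over all genes.

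**Figure D2:**
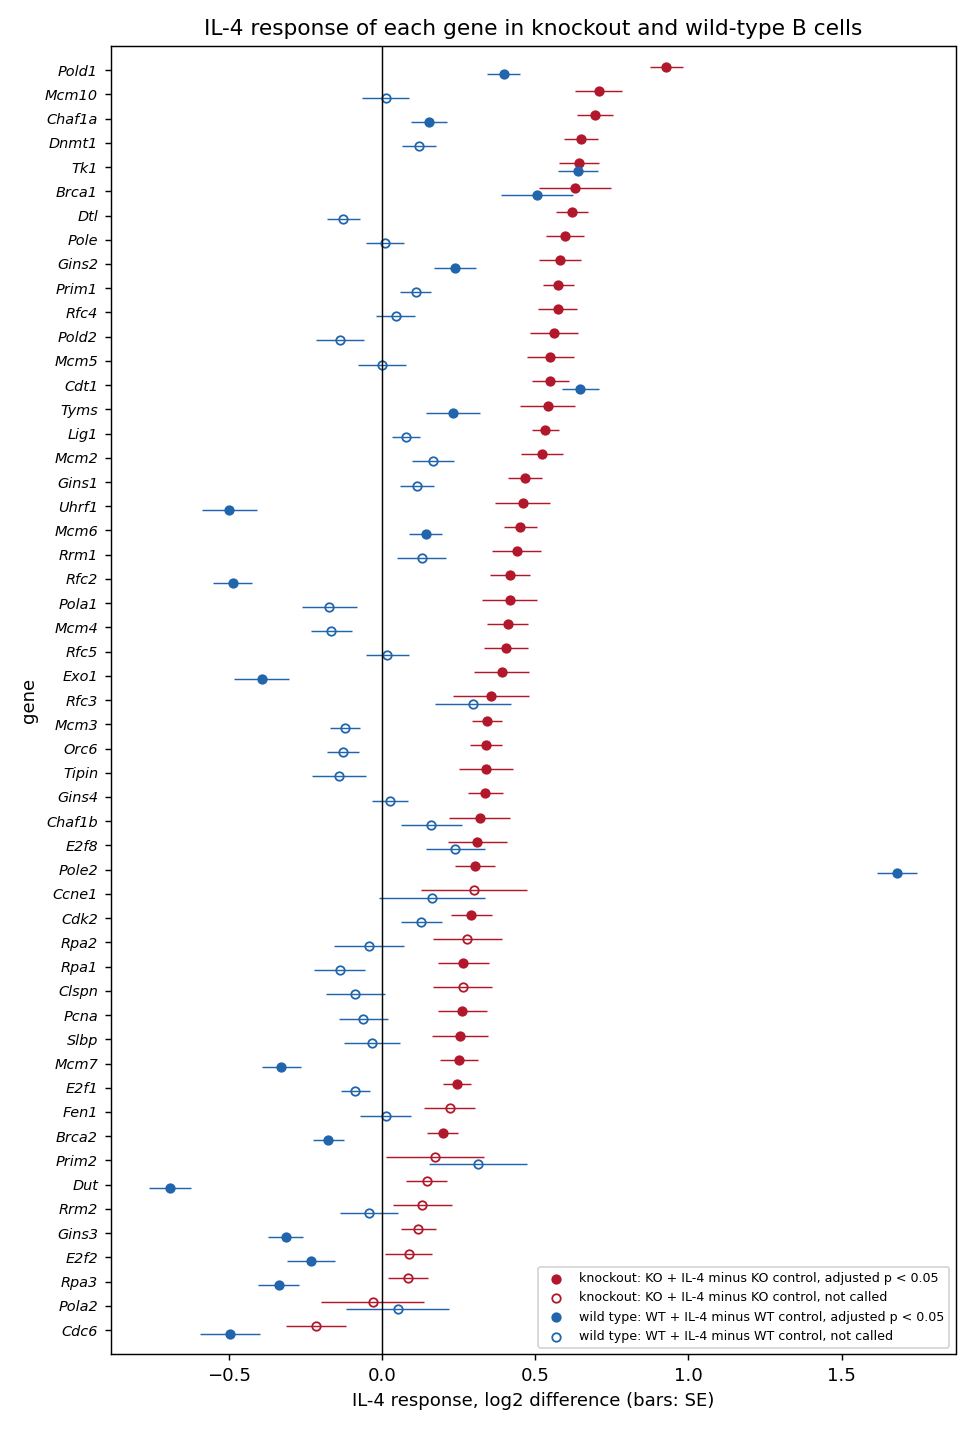
IL-4 response of each of the 53 members as a log2 difference with its SE (horizontal axis), in knockout cells (red, KO IL-4 minus KO control) and wild-type cells (blue, WT IL-4 minus WT control), ordered by the knockout response, with filled points past an adjusted p of 0.05. The 41 filled red points all lie to the right of 0, whereas 9 filled blue points lie to its right and 10 to its left, and Pole2 stands apart at 1.68 in wild type.

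Among the genes that license origins, 9 of 10 rose in KO cells and 8 responded more in KO than in WT cells. The shares of all genes, here and for each role below, were 27.5% and 28.3%. Mcm5, a subunit of the MCM helicase, measured 5.36, 5.26 and 5.10 on the KO IL-4 arrays and 4.75, 4.74 and 4.58 on the KO control arrays. For Mcm5, WT cells gave 4.75, 4.84 and 4.73 with IL-4 and 4.69, 4.79 and 4.85 without it. Only the KO IL-4 arrays stood apart, above the other 9, which overlapped with each other. The KO response of Mcm5 was 0.55 ± 0.077 (1.46-fold, adjusted p = 0.000336), the WT arrays gave no difference that passed (adjusted p = 0.999), and the responses differed by 0.55 ± 0.11 (adjusted p = 0.00253). Mcm2, another MCM subunit, measured 2.90, 2.90 and 2.72 on the KO IL-4 arrays and 2.39, 2.33 and 2.23 on the KO control arrays. For Mcm2, WT cells gave 2.57, 2.66 and 2.71 with IL-4 and 2.44, 2.45 and 2.55 without it. All KO IL-4 arrays exceeded the WT IL-4 arrays, and the KO controls lay below every other array. Its KO response was 0.52 ± 0.068 (adjusted p = 0.000208) and its WT response, 0.17 ± 0.068, just missed the threshold (adjusted p = 0.0588) and passed without WT IL-4 1 (0.21, adjusted p = 0.0447). Its call between KO IL-4 and WT IL-4, 0.19 ± 0.068, was lost without KO IL-4 1, KO IL-4 2, WT IL-4 1 or WT IL-4 2 (0.15 to 0.20, adjusted p = 0.0725 to 0.134), each array being left out singly here and below. Mcm10, which helps to start the replication fork, measured 4.39, 4.44 and 4.27 on the KO IL-4 arrays and 3.76, 3.65 and 3.56 on the KO control arrays. For Mcm10, WT cells gave 3.59, 3.64 and 3.63 with IL-4 and 3.47, 3.70 and 3.67 without it (probe at chr2:4911785-4911844, mm9). Again the KO IL-4 arrays alone stood apart, above the other 9. It had the largest KO response of the licensing genes, 0.71 ± 0.076 (adjusted p = 6.05e-05), and a WT response of 0.011 ± 0.076 (adjusted p = 0.91).

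Mcm6 measured 7.63, 7.69 and 7.59 on the KO IL-4 arrays and 7.23, 7.12 and 7.20 on the KO control arrays. For Mcm6, WT cells gave 7.46, 7.61 and 7.58 with IL-4 and 7.36, 7.45 and 7.41 without it. Its KO controls lay below all other arrays, and the KO and WT IL-4 arrays overlapped. The KO response of Mcm6 was 0.45 ± 0.055 (adjusted p = 0.000133). Its WT response, 0.14 ± 0.055, was lost without WT IL-4 2, WT IL-4 3, WT control 1, WT control 2 or WT control 3 (0.11 to 0.16, adjusted p = 0.0564 to 0.148). Mcm7 rose by 0.25 in KO cells and fell by 0.33 in WT cells. Mcm3, Mcm4 and Orc6, a subunit of the origin recognition complex, rose by 0.34, 0.41 and 0.34 in KO cells, and their WT differences were below 0 without passing (-0.12, -0.17 and -0.13), although that of Mcm3 passed without WT control 1 (-0.17, adjusted p = 0.0142). Cdt1, which brings MCM to origins, measured 4.63, 4.62 and 4.49 on the KO IL-4 arrays and 4.09, 4.02 and 3.97 on the KO control arrays. For Cdt1, WT cells gave 4.67, 4.58 and 4.76 with IL-4 and 4.00, 4.06 and 4.01 without it. IL-4 arrays of either genotype lay above all controls, with responses of 0.55 ± 0.060 in KO and 0.65 ± 0.060 in WT cells (adjusted p of the difference = 0.372, difference -0.098 ± 0.085). Cdc6, the ATPase that loads MCM beside the origin recognition complex, measured -2.04, -1.89 and -1.86 on the KO IL-4 arrays and -1.68, -1.63 and -1.85 on the KO control arrays. For Cdc6, WT cells gave -2.09, -2.30 and -2.33 with IL-4 and -1.77, -1.58 and -1.88 without it. It fell by 0.50 in WT cells (adjusted p = 0.00146), and its KO difference of -0.22 ± 0.098, the lowest of the members, did not pass (adjusted p = 0.105). A dimmer probe of Cdc6 gave 0.16 ± 0.12 in KO cells (adjusted p over probes 0.323), so the sign there depends on the probe. That probe gave a difference between the responses of 0.57 ± 0.17 (adjusted p over probes 0.0218), while the main probe did not pass (0.28 ± 0.14, adjusted p = 0.125). Cdc6 was higher in KO IL-4 than in WT IL-4 cells (0.31 ± 0.098), a call lost without KO IL-4 2, KO IL-4 3, WT IL-4 2 or WT IL-4 3 (0.27 to 0.29, adjusted p = 0.0658 to 0.0816).

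The 4 GINS subunits, which tie the helicase to the polymerases, included 3 that rose in KO cells, and the KO response was the higher in all 4. Gins2 measured 3.46, 3.42 and 3.28 on the KO IL-4 arrays and 2.84, 2.83 and 2.74 on the KO control arrays. For Gins2, WT cells gave 3.02, 3.10 and 3.02 with IL-4 and 2.69, 2.85 and 2.89 without it. The KO IL-4 arrays were the highest, and the WT IL-4 arrays lay above the WT controls. Responses of Gins2 were 0.58 ± 0.068 in KO cells (adjusted p = 0.000109) and 0.24 ± 0.068 in WT cells (adjusted p = 0.0126). Gins1 measured 2.59, 2.57 and 2.54 on the KO IL-4 arrays and 2.21, 2.09 and 2.01 on the KO control arrays. For Gins1, WT cells gave 2.28, 2.28 and 2.19 with IL-4 and 2.11, 2.16 and 2.14 without it. KO IL-4 arrays of Gins1 were again the highest, with a KO response of 0.47 ± 0.056 (adjusted p = 0.00012) and a WT difference of 0.11 ± 0.056 that did not pass. Gins4 rose by 0.34 in KO cells, and its difference between KO IL-4 and WT IL-4 (0.18 ± 0.058) was lost without KO IL-4 1, KO IL-4 2, WT IL-4 1 or WT IL-4 3 (0.14 to 0.18, adjusted p = 0.0608 to 0.0924). Gins3 differed from the others: its KO difference was 0.12 ± 0.057 (adjusted p = 0.125) and it fell by 0.31 in WT cells (adjusted p = 0.000839).

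All 5 genes of the clamp and its loader rose in KO cells, with a median of 0.40. Rfc2, a subunit of replication factor C, measured 5.73, 5.75 and 5.53 on the KO IL-4 arrays and 5.30, 5.28 and 5.17 on the KO control arrays. For Rfc2, WT cells gave 4.80, 4.83 and 4.82 with IL-4 and 5.25, 5.30 and 5.36 without it (probe at chr5:135073809-135073868, mm9). The groups formed separate levels, with KO IL-4 on top, the controls of either genotype together in the middle and WT IL-4 at the bottom. Rfc2 rose by 0.42 ± 0.065 in KO cells (adjusted p = 0.000604) and fell in WT cells (-0.49 ± 0.065, adjusted p = 9.34e-05), so that the responses differed by 0.91 ± 0.091 (adjusted p = 2.73e-05). Rfc4 measured 5.26, 5.25 and 5.15 on the KO IL-4 arrays and 4.65, 4.73 and 4.56 on the KO control arrays. For Rfc4, WT cells gave 4.63, 4.78 and 4.76 with IL-4 and 4.62, 4.76 and 4.65 without it. Its KO response was 0.57 ± 0.064 (adjusted p = 8.2e-05), and the WT groups overlapped (0.045 ± 0.064, adjusted p = 0.579). Rfc5 rose by 0.40 in KO cells, without a WT difference that passed. Rfc3 rose by 0.36 (adjusted p = 0.0408), a call lost without KO IL-4 1, KO IL-4 2, KO control 1, KO control 2 or KO control 3 (0.30 to 0.38, adjusted p = 0.0592 to 0.134). Its WT IL-4 array 2, at 1.15, stood above the other WT IL-4 arrays at 0.69 and 0.65, and its WT difference passed without WT IL-4 1 or WT IL-4 3 (0.37 to 0.38, adjusted p = 0.0339 to 0.0478). Pcna, the sliding clamp, measured 6.15, 6.09 and 5.89 on the KO IL-4 arrays and 5.83, 5.85 and 5.67 on the KO control arrays. For Pcna, WT cells gave 5.72, 5.77 and 5.74 with IL-4 and 5.74, 5.93 and 5.75 without it. The KO IL-4 arrays lay above the KO controls, but array 3 lay within the range of the WT controls, and the KO response was 0.26 ± 0.080 (adjusted p = 0.0244). This call was lost without KO IL-4 1, KO IL-4 2 or KO control 3 (0.21 to 0.24, adjusted p = 0.0769 to 0.0921). The higher KO response of Pcna was lost without KO IL-4 1, KO IL-4 2, KO control 3, WT IL-4 1, WT IL-4 2, WT IL-4 3, WT control 2 or WT control 3 (0.26 to 0.35, adjusted p = 0.0506 to 0.095).

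**Figure D3:**
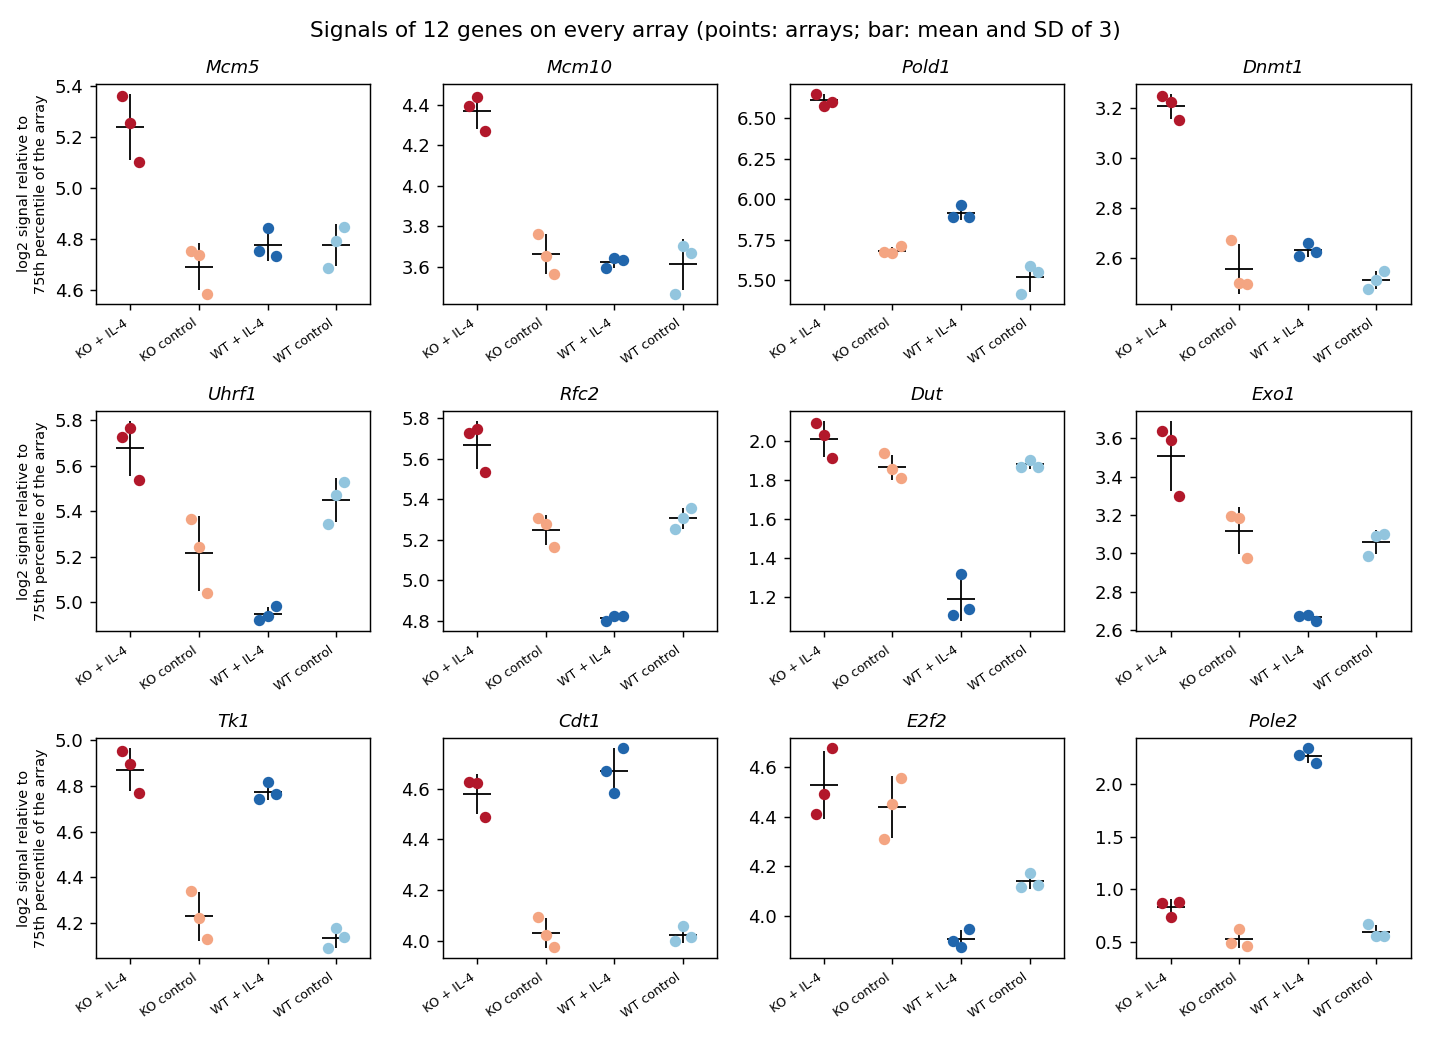
Log2 signal relative to the 75th percentile of the array (vertical axes, each with its own range) for 12 members on every array, with points for arrays and a line and bar for the mean and SD of 3. Mcm5, Mcm10, Pold1 and Dnmt1 are highest on the KO IL-4 arrays, Uhrf1, Rfc2, Dut, Exo1 and E2f2 are lowest on the WT IL-4 arrays, Tk1 and Cdt1 are high with IL-4 in either genotype, and Pole2 is high on the WT IL-4 arrays.

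Of the 8 polymerase and primase genes, 6 rose in KO cells. Pold1, the catalytic subunit of polymerase delta, measured 6.65, 6.58 and 6.60 on the KO IL-4 arrays and 5.67, 5.66 and 5.71 on the KO control arrays. For Pold1, WT cells gave 5.89, 5.96 and 5.89 with IL-4 and 5.41, 5.59 and 5.55 without it (probe at chr7:51788221-51788589, mm9). The KO IL-4 arrays were the highest, followed without overlap by the WT IL-4 arrays, the KO controls and the WT controls. Its KO response was the largest of all members, 0.93 ± 0.053 (adjusted p = 1.67e-06), its WT response was 0.40 ± 0.053 (adjusted p = 9.91e-05), and the difference was 0.53 ± 0.075 (adjusted p = 0.00028). The accessory subunit Pold2 rose by 0.56 in KO cells, with a WT difference of -0.14 that did not pass except without WT control 1 (-0.21, adjusted p = 0.0415). Pole, the catalytic subunit of polymerase epsilon, measured 5.34, 5.34 and 5.23 on the KO IL-4 arrays and 4.79, 4.73 and 4.60 on the KO control arrays. For Pole, WT cells gave 4.68, 4.73 and 4.80 with IL-4 and 4.66, 4.76 and 4.76 without it. Only its KO IL-4 arrays stood apart, with a KO response of 0.60 ± 0.063 (adjusted p = 5.57e-05), and the WT groups overlapped. A dimmer Pole probe rose in WT cells too (0.39 ± 0.097, adjusted p over probes 0.00615), so its WT result depends on the probe.

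Pole2, the second subunit of polymerase epsilon, was highest in another group. It measured 0.87, 0.73 and 0.88 on the KO IL-4 arrays and 0.49, 0.62 and 0.46 on the KO control arrays. For Pole2, WT cells gave 2.28, 2.34 and 2.20 with IL-4 and 0.67, 0.56 and 0.56 without it (probe at chr12:70307465-70308864, mm9). The WT IL-4 arrays lay far above every other array, and the KO IL-4 arrays lay above both sets of controls by a smaller step. Pole2 rose 3.21-fold in WT cells (1.68 ± 0.065, adjusted p = 8.98e-09) and 1.23-fold in KO cells (0.30 ± 0.065, adjusted p = 0.00437). It was the only member past 2-fold in either genotype and the only one whose lower response in KO cells passed the test (-1.38 ± 0.093, adjusted p = 1.36e-06). Pola1, the catalytic subunit of polymerase alpha, measured 2.18, 2.17 and 2.03 on the KO IL-4 arrays and 1.92, 1.67 and 1.55 on the KO control arrays. For Pola1, WT cells gave 1.63, 1.78 and 1.71 with IL-4 and 1.87, 1.93 and 1.85 without it. Its KO IL-4 arrays lay above all others and its response was 0.42 ± 0.089 (adjusted p = 0.00408). Prim1, the catalytic primase subunit, rose by 0.57 in KO cells. Its probe lies 0.369 Mb from those of Stat6, a region that can differ between strains around a knocked-out gene, and its difference between KO and WT controls, -0.046 ± 0.050, did not pass (adjusted p = 0.546). The partners Pola2 and Prim2 passed no test, and each had an array far from its group: Pola2 measured -0.06 on KO control 1 against -0.63 and -0.81, and Prim2 measured -1.23 on WT IL-4 array 1 against -1.79 and -1.85.

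RPA, the complex that coats exposed single-stranded DNA, had 1 of 3 subunits rising in KO cells, close to the 27.5% of all genes. Rpa1 measured 5.96, 5.89 and 5.68 on the KO IL-4 arrays and 5.72, 5.50 and 5.52 on the KO control arrays. For Rpa1, WT cells gave 5.51, 5.61 and 5.61 with IL-4 and 5.68, 5.78 and 5.69 without it. Its KO IL-4 and KO control arrays overlapped, although the difference of 0.27 ± 0.083 passed (adjusted p = 0.0262). That call was lost without KO IL-4 1, KO IL-4 2, KO control 2 or KO control 3 (0.21 to 0.24, adjusted p = 0.0817 to 0.0987). A dimmer Rpa1 probe did not follow: it gave -0.022 ± 0.11 in KO cells (adjusted p over probes 0.89) and was lower in KO IL-4 than in WT IL-4 cells by 0.36, where the main probe was higher by 0.27. The main probe's call there was lost without KO IL-4 1, KO IL-4 2 or WT IL-4 1 (0.21 to 0.24, adjusted p = 0.0656 to 0.0787). Rpa2 measured 2.35, 2.30 and 1.88 on the KO IL-4 arrays and 2.01, 1.88 and 1.80 on the KO control arrays. For Rpa2, WT cells gave 1.88, 2.02 and 1.90 with IL-4 and 1.90, 2.04 and 2.00 without it. Array 3 of the KO IL-4 group lay at the level of the controls and no test of Rpa2 passed with all arrays (0.28 ± 0.11, adjusted p = 0.0737 in KO cells). The KO difference of Rpa2 passed without KO IL-4 3 (0.43, adjusted p = 0.00186). Rpa3 measured 5.10, 5.10 and 4.97 on the KO IL-4 arrays and 5.03, 5.04 and 4.84 on the KO control arrays. For Rpa3, WT cells gave 4.62, 4.74 and 4.65 with IL-4 and 5.02, 5.04 and 4.96 without it. WT IL-4 arrays of Rpa3 lay below all others, and it fell in WT cells by 0.34 (adjusted p = 0.00132) with no call in KO cells. Of the genes that join Okazaki fragments, Lig1, the ligase of the lagging strand, measured 6.55, 6.52 and 6.49 on the KO IL-4 arrays and 6.00, 6.02 and 5.93 on the KO control arrays. For Lig1, WT cells gave 6.06, 6.11 and 6.07 with IL-4 and 5.95, 6.03 and 6.02 without it. Its KO IL-4 arrays stood clear of all others (KO response 0.53 ± 0.044, adjusted p = 1.29e-05). Fen1, the flap nuclease, measured 5.09, 5.14 and 4.83 on the KO IL-4 arrays and 4.93, 4.77 and 4.70 on the KO control arrays. For Fen1, WT cells gave 5.05, 5.07 and 5.09 with IL-4 and 5.02, 5.09 and 5.07 without it. The KO IL-4 and KO control arrays of Fen1 overlapped and its KO difference of 0.22 ± 0.083 just missed the threshold (adjusted p = 0.0543). It passed without KO IL-4 3 or KO control 1 (0.29 to 0.32, adjusted p = 0.00422 to 0.0229).

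The genes that supply nucleotides split. Tk1, thymidine kinase of the salvage pathway, measured 4.95, 4.89 and 4.77 on the KO IL-4 arrays and 4.34, 4.22 and 4.13 on the KO control arrays. For Tk1, WT cells gave 4.74, 4.82 and 4.77 with IL-4 and 4.09, 4.18 and 4.14 without it. IL-4 arrays lay above controls in either genotype, with responses of 0.64 ± 0.066 in KO (adjusted p = 4.75e-05) and 0.64 ± 0.066 in WT cells (adjusted p = 1.42e-05). The difference between the responses, 0.0014 ± 0.093, did not pass (adjusted p = 0.991). The 2 other kept Tk1 probes gave 0.17 ± 0.11 and -0.56 ± 0.52 for it, which did not pass either. Tyms, thymidylate synthase, measured -0.87, -0.84 and -0.92 on the KO IL-4 arrays and -1.53, -1.43 and -1.29 on the KO control arrays. For Tyms, WT cells gave -1.18, -1.20 and -0.93 with IL-4 and -1.23, -1.34 and -1.43 without it. It rose in KO cells (0.54 ± 0.088, adjusted p = 0.000853) and in WT cells (0.23 ± 0.088, adjusted p = 0.0449), and the WT call was lost without WT IL-4 3, WT control 2 or WT control 3 (0.14 to 0.23, adjusted p = 0.0992 to 0.17). Its difference between responses passed without KO control 3 or WT IL-4 3 (0.37 to 0.40, adjusted p = 0.0189 to 0.0387). Dut, which breaks down dUTP and so keeps uracil out of DNA, measured 2.09, 2.03 and 1.91 on the KO IL-4 arrays and 1.94, 1.85 and 1.81 on the KO control arrays. For Dut, WT cells gave 1.11, 1.31 and 1.14 with IL-4 and 1.87, 1.90 and 1.86 without it (probe at chr2:125083359-125083418, mm9). The WT IL-4 arrays lay below all others, and Dut had the largest fall of any member in WT cells (-0.69 ± 0.068, adjusted p = 9.68e-06), while its KO difference of 0.15 ± 0.068 did not pass except without KO IL-4 3 (0.20, adjusted p = 0.0442). Ribonucleotide reductase makes deoxyribonucleotides. Its large subunit Rrm1 rose in KO cells (0.44 ± 0.080, adjusted p = 0.00156), and its higher KO response was lost without KO IL-4 1, KO IL-4 2, KO control 2, KO control 3, WT IL-4 1, WT IL-4 2, WT IL-4 3, WT control 2 or WT control 3 (0.25 to 0.33, adjusted p = 0.0637 to 0.102). The small subunit Rrm2 measured 5.61, 5.61 and 5.25 on the KO IL-4 arrays and 5.40, 5.40 and 5.28 on the KO control arrays. For Rrm2, WT cells gave 5.11, 5.15 and 5.30 with IL-4 and 5.18, 5.23 and 5.28 without it. KO IL-4 array 3 lay below all KO controls, and Rrm2 had no call for IL-4 with all arrays, though its KO difference passed without KO IL-4 3 (0.25, adjusted p = 0.0143).

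Among the regulators of S phase entry, 3 of the 5 tested rose in KO cells. E2f1, an activating E2F factor, measured 3.04, 3.04 and 2.96 on the KO IL-4 arrays and 2.78, 2.78 and 2.74 on the KO control arrays. For E2f1, WT cells gave 2.63, 2.65 and 2.57 with IL-4 and 2.65, 2.73 and 2.74 without it. KO IL-4 arrays lay above all others, with a response of 0.24 ± 0.047 (adjusted p = 0.00211) and a WT difference of -0.087 ± 0.047 (adjusted p = 0.135). E2f2 measured 4.41, 4.49 and 4.68 on the KO IL-4 arrays and 4.31, 4.45 and 4.56 on the KO control arrays. For E2f2, WT cells gave 3.90, 3.88 and 3.95 with IL-4 and 4.12, 4.17 and 4.13 without it (probe at chr4:135750562-135750621, mm9). It followed genotype more than cytokine: all KO arrays lay above all WT arrays, it fell with IL-4 in WT cells (-0.23 ± 0.077, adjusted p = 0.0254), and its KO difference was 0.087 ± 0.077 (adjusted p = 0.394). The WT fall was lost without WT IL-4 1, WT IL-4 2, WT control 2 or WT control 3 (-0.24 to -0.21, adjusted p = 0.0532 to 0.0751). The difference between the responses of E2f2 was lost without 10 of the 12 arrays, left out singly (0.24 to 0.34, adjusted p = 0.0509 to 0.0783), the exceptions being KO IL-4 1 and KO control 3. E2f8, a repressor that is itself an E2F target, measured 1.91, 1.89 and 1.72 on the KO IL-4 arrays and 1.68, 1.53 and 1.38 on the KO control arrays. For E2f8, WT cells gave 1.73, 1.74 and 1.80 with IL-4 and 1.33, 1.60 and 1.63 without it. Its KO response was 0.31 ± 0.096 (adjusted p = 0.0254), and the WT difference of 0.24 ± 0.096 just missed the threshold (adjusted p = 0.056) and passed without WT control 3 (0.29, adjusted p = 0.0445). The KO call was lost without KO IL-4 1, KO IL-4 2, KO control 2 or KO control 3 (0.24 to 0.31, adjusted p = 0.0618 to 0.0916). Ccne1, cyclin E1, measured 3.03, 3.08 and 2.41 on the KO IL-4 arrays and 2.80, 2.54 and 2.27 on the KO control arrays. For Ccne1, WT cells gave 2.79, 2.87 and 2.86 with IL-4 and 2.57, 2.70 and 2.75 without it. KO IL-4 array 3 lay within the KO controls, and no test passed with all arrays (0.30 ± 0.17, adjusted p = 0.193 in KO cells), while the KO difference passed without KO IL-4 3 (0.51, adjusted p = 0.0105). Cdk2, the kinase partner of cyclin E, rose by 0.29 in KO cells. Its probe also lies near those of Stat6, at 1.04 Mb, and its difference between KO and WT controls, -0.10 ± 0.066, did not pass (adjusted p = 0.312).

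All 5 genes of chromatin replication rose in KO cells, with a median of 0.46. Dnmt1, which copies DNA methylation onto the new strand, measured 3.25, 3.22 and 3.15 on the KO IL-4 arrays and 2.67, 2.50 and 2.50 on the KO control arrays. For Dnmt1, WT cells gave 2.61, 2.66 and 2.63 with IL-4 and 2.48, 2.51 and 2.55 without it. The KO IL-4 arrays exceeded the other 9, with a KO response of 0.65 ± 0.056 (adjusted p = 1.53e-05) and a WT difference of 0.12 ± 0.056 (adjusted p = 0.0905). Uhrf1, which brings Dnmt1 to replicating DNA, measured 5.72, 5.76 and 5.54 on the KO IL-4 arrays and 5.36, 5.24 and 5.04 on the KO control arrays. For Uhrf1, WT cells gave 4.92, 4.94 and 4.98 with IL-4 and 5.34, 5.47 and 5.53 without it (probe at chr17:56462770-56462829, mm9). Here the WT IL-4 arrays lay below all others and the KO IL-4 arrays above all others. Uhrf1 rose by 0.46 ± 0.090 in KO cells and changed by -0.50 ± 0.090 in WT cells, and the responses differed by 0.96 ± 0.13 (adjusted p = 0.000186), the largest positive difference of the members. Its partner Dnmt1 did not share the WT fall. Chaf1a, the large subunit of the chromatin assembly factor that deposits histones behind the fork, measured 4.18, 4.23 and 4.11 on the KO IL-4 arrays and 3.51, 3.47 and 3.46 on the KO control arrays. For Chaf1a, WT cells gave 3.59, 3.56 and 3.60 with IL-4 and 3.31, 3.44 and 3.53 without it. It rose by 0.70 ± 0.059 in KO cells (adjusted p = 1.36e-05) and by 0.15 ± 0.059 in WT cells (adjusted p = 0.0441), the WT call being lost without WT IL-4 1, WT IL-4 2, WT IL-4 3, WT control 1 or WT control 2 (0.095 to 0.17, adjusted p = 0.0675 to 0.164). Chaf1b, a smaller subunit, rose by 0.32 in KO cells, a call lost without KO IL-4 1, KO IL-4 2 or KO control 3 (0.24 to 0.26, adjusted p = 0.094 to 0.0957). Slbp, which binds the stem-loop of histone mRNA, measured 2.32, 2.24 and 1.98 on the KO IL-4 arrays and 1.96, 1.87 and 1.95 on the KO control arrays. For Slbp, WT cells gave 1.89, 2.02 and 1.91 with IL-4 and 1.83, 2.02 and 2.07 without it. KO IL-4 array 3 lay just above the KO controls, and the KO response of 0.25 ± 0.092 (adjusted p = 0.0479) was the closest to the threshold of the 41 calls. It was lost without KO IL-4 1, KO IL-4 2, KO control 1, KO control 2 or KO control 3 (0.18 to 0.27, adjusted p = 0.0688 to 0.171).

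In the checkpoint and repair group, 5 of the 6 tested members rose in KO cells. Dtl, which marks Cdt1 for destruction in S phase, measured 3.49, 3.53 and 3.38 on the KO IL-4 arrays and 2.91, 2.83 and 2.79 on the KO control arrays. For Dtl, WT cells gave 2.75, 2.80 and 2.74 with IL-4 and 2.90, 2.90 and 2.87 without it. It rose in KO cells (0.62 ± 0.053, adjusted p = 1.46e-05), and its WT difference was -0.13 ± 0.053 (adjusted p = 0.0629). Exo1, a nuclease of mismatch repair and of DNA end resection, measured 3.64, 3.59 and 3.30 on the KO IL-4 arrays and 3.20, 3.18 and 2.98 on the KO control arrays. For Exo1, WT cells gave 2.67, 2.68 and 2.65 with IL-4 and 2.99, 3.09 and 3.10 without it. Its KO IL-4 arrays lay above and its WT IL-4 arrays below all others, with responses of 0.39 ± 0.090 and -0.39 ± 0.090 (adjusted p of the difference = 0.000741). Brca2, a DNA repair protein, measured 1.97, 2.04 and 1.95 on the KO IL-4 arrays and 1.82, 1.77 and 1.77 on the KO control arrays. For Brca2, WT cells gave 1.58, 1.44 and 1.51 with IL-4 and 1.72, 1.63 and 1.70 without it. It was also highest on the KO IL-4 and lowest on the WT IL-4 arrays, with 0.20 ± 0.050 in KO cells (adjusted p = 0.0103) and -0.18 ± 0.050 in WT cells (adjusted p = 0.0128), the WT call being lost without WT IL-4 2 (-0.14, adjusted p = 0.0545). Brca1, a ubiquitin ligase of homologous recombination, measured -2.08, -2.35 and -2.46 on the KO IL-4 arrays and -2.89, -2.93 and -2.96 on the KO control arrays. For Brca1, WT cells gave -2.62, -2.25 and -2.36 with IL-4 and -2.81, -2.85 and -3.08 without it. IL-4 arrays lay above controls in either genotype, and Brca1 rose by 0.63 ± 0.12 in KO cells and 0.51 ± 0.12 in WT cells, with a difference of 0.13 ± 0.17 that did not pass (adjusted p = 0.567). Tipin, which protects stalled forks, rose by 0.34 in KO cells, and Clspn, the mediator of Chek1 activation, missed the threshold (0.26 ± 0.097, adjusted p = 0.0506) but passed without KO IL-4 3 or KO control 2 (0.33 to 0.34, adjusted p = 0.0237 to 0.0287).

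When KO IL-4 cells were set directly against WT IL-4 cells, 37 members were higher and 1, Pole2, was lower, where 29.8% of all genes were higher and 21.3% lower. These contrasts share the IL-4 arrays with the responses above and add no independent support to them. The largest differences were those of Rfc2 (0.85 ± 0.065), Exo1 (0.84 ± 0.090), Dut (0.83 ± 0.068) and Mcm10 (0.74 ± 0.076), and Pole2 differed by -1.45 ± 0.065. For Rfc2, Exo1 and Dut the WT fall makes up part of this difference, and for Mcm10 the KO rise makes up nearly all of it. The size for Dut depends on the probe, since a dimmer one gave 1.33 ± 0.087 (adjusted p over probes 6.14e-07). Members without a call included Tk1 (0.096 ± 0.066), Brca1 (0.12 ± 0.12) and Cdt1 (-0.092 ± 0.060), which rose with IL-4 in both genotypes. For Tk1 this depends on the probe, since its other probes gave 0.25 ± 0.078 (adjusted p over probes 0.0244, a call) and -0.85 ± 0.37 (adjusted p over probes 0.0803). Calls lost when an array was left out also included Clspn (0.27 ± 0.097, lost without KO IL-4 1, KO IL-4 2, WT IL-4 2 or WT IL-4 3 (0.22 to 0.27, adjusted p = 0.0807 to 0.126)) and Rrm2 (0.30 ± 0.095, lost without KO IL-4 1, KO IL-4 2, WT IL-4 1 or WT IL-4 2 (0.24 to 0.29, adjusted p = 0.0623 to 0.0823)).

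Without IL-4 the genotypes differed little in these genes. Between KO and WT controls 1 member was higher and 1 was lower, where 4.73% of all genes were higher and 6.96% lower, and the median difference was -0.029, against -0.041 over all genes. E2f2 was the higher one, with 4.31, 4.45 and 4.56 on the KO control arrays, against 4.12, 4.17 and 4.13 on the WT control arrays (0.30 ± 0.077, adjusted p = 0.0369). Mcm6 was the lower one, with 7.23, 7.12 and 7.20 on the KO control arrays, against 7.36, 7.45 and 7.41 on the WT control arrays (-0.23 ± 0.055, adjusted p = 0.0307). Neither call held within slide 1, with slide as a block, or without any single control array other than KO control 1 (E2f2 0.24 to 0.32, Mcm6 -0.25 to -0.19). Without KO control 1, Fen1, Pola1 and Uhrf1 were lower too (-0.32, -0.27 and -0.31), which made 4 of 53 members lower, where 14.3% of all genes were. Pold1 and Fen1 came next (0.16 ± 0.053 and -0.26 ± 0.083, each with an adjusted p of 0.0678). These counts use the brightest probe of each gene. A dimmer Dut probe was higher in KO controls (0.36 ± 0.087, adjusted p over probes 0.0345), where the main Dut probe gave -0.013.

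Slide limits the KO results, and the arrays cannot settle its part in them. On slide 2, where the 3 KO IL-4 arrays stand against KO control 3 alone, the median member difference was 0.47, 51 of 53 were above 0 and 7 passed, where 2.07% of all genes did. They were Chaf1a (0.71), Dnmt1 (0.71), Mcm10 (0.80), Pold1 (0.90), Pole (0.71), Rfc4 (0.65) and Tk1 (0.74). These values rest on KO control 3 alone, which was the lowest KO control for 42 of 53 members and is assumed to vary like the KO IL-4 arrays, so they give no independent support to the rise. With slide as a block over all arrays 38 of the 41 members kept their rise in KO cells, where 21.5% of all genes rose, and the lost ones were Rfc3, Rpa1 and Slbp. For the difference between responses 35 members were higher and 1 lower with the block, where 26.3% and 15.8% of all genes were, and for KO IL-4 against WT IL-4 the counts were 32 and 1, where 18.1% and 13.9% were. The block links the slides only through KO controls 1 and 2 against KO control 3, so its KO differences are also those against that 1 array, with the same median of 0.47.

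Pole2 was followed along chromosome 12, in a comparison chosen after its values had been seen. In the RefSeq gene order Pole2 lies between Dnaaf2 and Klhdc1, with Klhdc2 next. Dnaaf2, needed to assemble the motor arms of cilia, measured 0.47, 0.51 and 0.68 on the KO IL-4 arrays and 0.29, 0.23 and 0.38 on the KO control arrays. For Dnaaf2, WT cells gave 2.68, 2.56 and 2.64 with IL-4 and 0.11, 0.22 and 0.28 without it. Klhdc2, an adaptor of a ubiquitin ligase, measured 2.63, 2.55 and 2.39 on the KO IL-4 arrays and 2.24, 2.26 and 2.03 on the KO control arrays. For Klhdc2, WT cells gave 4.84, 4.88 and 4.86 with IL-4 and 2.24, 2.37 and 2.34 without it. Each stood highest on the WT IL-4 arrays, as Pole2 did. The WT responses were 2.42 ± 0.072 for Dnaaf2, 1.68 ± 0.065 for Pole2, 2.03 ± 0.097 for Klhdc1 and 2.55 ± 0.076 for Klhdc2, and the KO responses were 0.25 ± 0.072, 0.30 ± 0.065, 0.042 ± 0.097 and 0.35 ± 0.076, of which that of Klhdc1 did not pass. The genes on either side of these 4 did not rise: Mgat2 differed by 0.095 ± 0.14 in WT cells (adjusted p = 0.584) and Nemf fell by 0.29. Each of the 4 was read by a single kept probe, and the cause of their shared response was not tested.

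**Figure D4:**
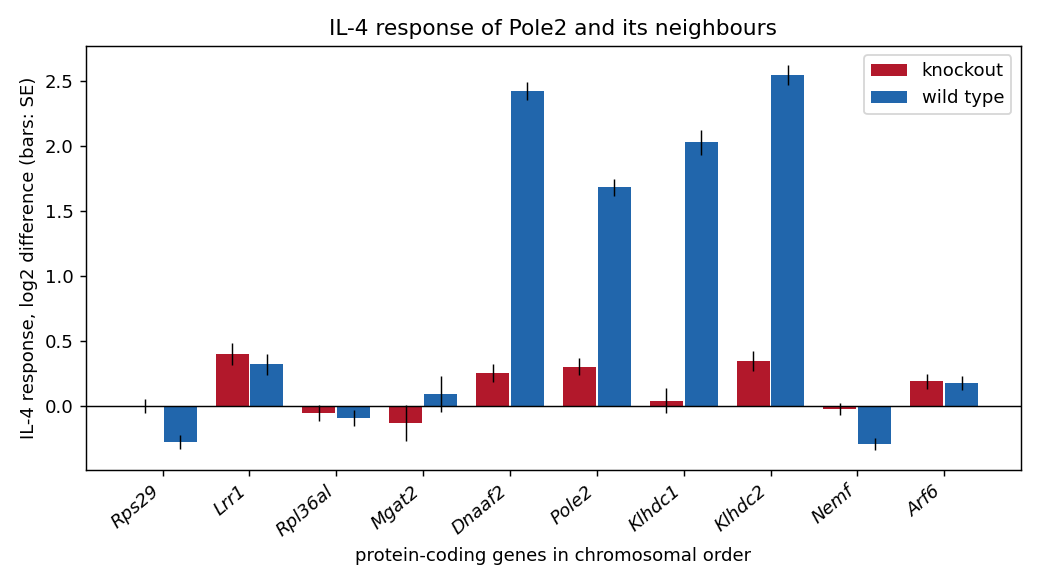
IL-4 response (log2 difference, with bars for the SE) of Pole2 and its tested protein-coding neighbours in chromosomal order, in knockout cells (red, left of each pair) and wild-type cells (blue). Dnaaf2, Pole2, Klhdc1 and Klhdc2 reach 1.68 to 2.55 in wild type, and the other genes stay between -0.29 and 0.40 in either genotype.

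The counts can be read beside related lists and beside all genes. Of all genes, 27.5% rose and 14.7% fell in KO cells, and 26.4% rose and 30.8% fell in WT cells. Of 38 tested genes with other roles in replication, 24 rose and 1, Pold4, a small subunit of polymerase delta, fell in KO cells, and 8 rose and 7 fell in WT cells. Hells, a chromatin remodeller, gave the largest difference between responses in that list, 1.23 ± 0.078 (KO 0.98, WT -0.25). Pold3, another polymerase delta subunit, and Ticrr, which helps to fire origins, rose by 0.53 and 0.64 in KO cells. Genes of G2 and mitosis mostly rose in either genotype: 35 of 38 rose and 0 fell in KO cells, and 28 rose and 0 fell in WT cells (limma; 0 also fell in either genotype at an unadjusted p under 0.05). Their medians were 0.64 in KO and 0.33 in WT cells, against 0.36 and 0.011 for the replication members. Replication-dependent histones rose in 20 and fell in 3 of 38 cases in KO cells, and rose in 3 and fell in 4 in WT cells. Histone mRNAs largely lack poly(A) tails and their probes resemble one another, so these values are uncertain.

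**Figure D5:**
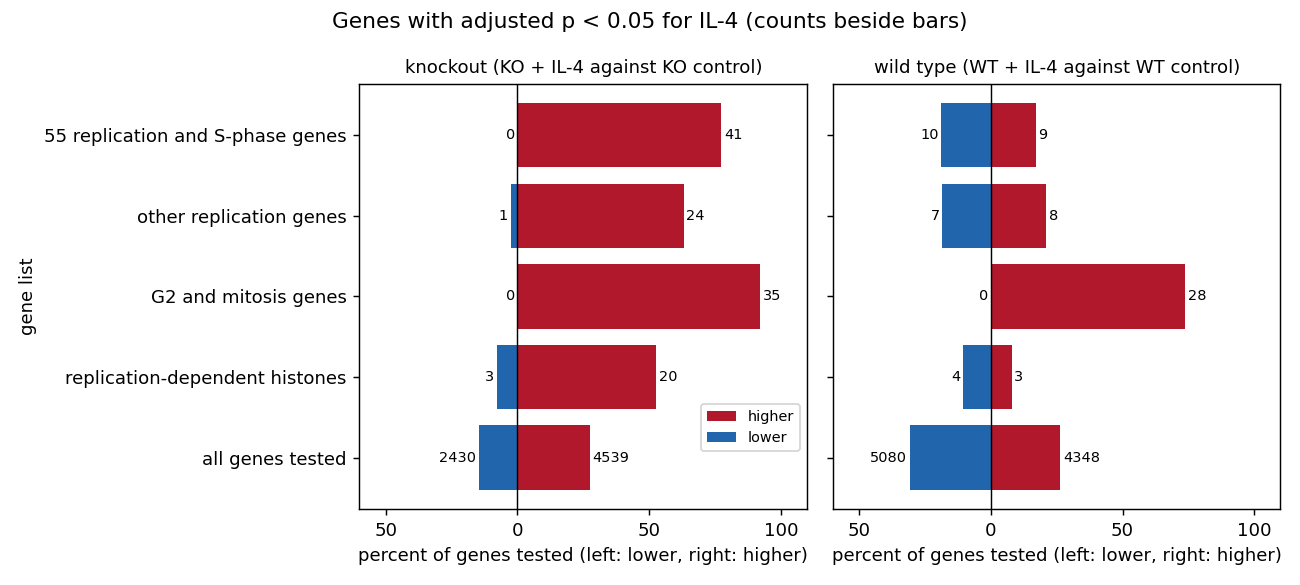
Percent of tested genes that rose (red, right of 0) or fell (blue, left of 0) with IL-4 at an adjusted p under 0.05, in knockout cells (left panel) and wild-type cells (right panel), for the 55 listed genes and for related lists, with counts beside the bars. The members show 41 higher and 0 lower in knockout and 9 and 10 in wild type, while the G2 and mitosis genes show 35 and 0 in knockout and 28 and 0 in wild type.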

How the data were processed

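RNA was hybridised to 12 1-colour Agilent arrays. Per the file headers, Agilent Feature Extraction 10.7.3.1 produced the scanner files that the authors deposited (probe positions in mm9), which hold for each spot a processed intensity, background subtracted, with mean and background intensities and flags. The authors also deposited log2 values, quantile normalised per that file's first line, with 1 value per gene name and array; these served as an alternative. The log2 of the processed intensity minus the 75th percentile of the array over 59305 non-control spots (percentile 296 to 356 in intensity) was used here. Outlier-flagged spots (122 to 196 per array) were dropped before averaging by probe. A probe was kept if well above background on every array of 1 or more groups, with at least 2 values in each group (22940 of 55681 probes), and the brightest kept probe stood for its gene, which gave 16497 genes. Probe names are those of slide 1; 1849 spots are named differently on slide 2, 0 of them members. Between 40.7% and 44.0% of spots were well above background and none was saturated, and 3 arrays per group limit the precision.

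In R 4.3.3, limma 3.58.1 estimated group means over all 12 arrays and tested for 5 contrasts, with Benjamini-Hochberg adjustment across all genes within each contrast and a call at an adjusted p under 0.05. Differences are log2 ± SE, with 3 arrays per group. The members and lists were chosen with earlier results of these data known. Genes described array by array were chosen by a rule: a fixed list of 23 members, the 4 called members with the largest difference in each direction of each contrast, and the 2 members of each role with the smallest adjusted p in any contrast; of other lists, up to 4 per contrast. Mcm7 and others given by their difference alone, and the neighbours of Pole2, fall outside it. The script was tested on simulated data. Alternatives covered scaling, background correction, filters, probes, the deposited table, variance settings, slide, replicate number and each array left out. Figures were drawn with matplotlib 3.10.9.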

Additional observations from a re-analysis of the deposited data

Results flagged for a closer look

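The IL-4 response differed between knockout and wild-type cells in 36 members by the test of the difference itself (limma, adjusted p under 0.05), which is why they are listed here. The knockout response was the higher in 35 and the lower in 1, where 28.3% and 16.4% of all genes had this. In log2 units, knockout response minus wild-type response, the differences over 0.6 were those of Uhrf1 (0.96), Rfc2 (0.91), Dut (0.84), Exo1 (0.78), Dtl (0.75), Pold2 (0.70) and Mcm10 (0.70). Dut passed through its fall in wild type alone, and Dtl, Pold2 and Mcm10 through a rise in the knockout with no wild-type call.

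Between 0.45 and 0.6 lay Pola1 (0.59), Pole (0.59), Mcm7 (0.58), Mcm4 (0.58), Mcm5 (0.55), Chaf1a (0.54), Pold1 (0.53), Dnmt1 (0.53), Rfc4 (0.53), Tipin (0.48), Orc6 (0.47), Prim1 (0.47), Mcm3 (0.46) and Lig1 (0.45). Smaller differences were those of Gins3 (0.43), Rpa3 (0.42), Rpa1 (0.40), Rfc5 (0.39), Brca2 (0.37), Mcm2 (0.36), Gins1 (0.35), Gins2 (0.34), E2f1 (0.33), Pcna (0.32), E2f2 (0.32), Gins4 (0.31), Rrm1 (0.31) and Mcm6 (0.31). Pole2 alone lay below 0, at -1.38.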

How the results depend on the processing

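The median response of the members in knockout cells stayed above 0 in every setting that gave one, at 0.23 (deposited table) to 0.51 (median scaling). Leaving out each array in turn gave 35 to 47 higher and 0 lower for IL-4 in the knockout. Of all genes, 22% to 30% were then higher and 12% to 16% lower, so these shares moved with the array too. IL-4 in wild type gave 6 to 10 higher and 8 to 12 lower (24% to 25% and 27% to 29% of all genes). Knockout against wild type gave 31 to 39 and 1 with IL-4 (26% to 31% and 19% to 20% of all genes). Without IL-4 that comparison gave 0 to 1 and 0 to 4 (1% to 8% and 2% to 14% of all genes). The difference between responses gave 32 to 39 and 1 (24% to 32% and 14% to 18% of all genes). With the replicate number as a block the counts were 41 and 0, 7 and 11, 36 and 1, 1 and 1, and 35 and 1 in the same order, so the block moved no count by much. The shares of all genes were then 26.5% and 14.3%, 25.9% and 30.0%, 28.9% and 20.6%, 4.29% and 5.64%, and 27.1% and 15.8%. Whether the numbers pair the samples was not settled. Over all pairs of groups, deviations of same-numbered arrays correlated at -0.24 to 0.39, over 0.1 in 2 of 18 pairs, and 11 of 36 best with their own number. Between control and IL-4 arrays of the same number they correlated at 0.038, 0.071 and 0.031 in wild type, each the highest for its arrays. In the knockout they gave 0.32, -0.017 and 0.39, the first and last being the highest for their arrays. For IL-4 in the knockout, 7 members passed within slide 2 (2.07% of all genes did), against 1 control array, normexp correction gave 1 lower member (Cdc6, -0.18, where 17.6% of all genes were lower) and 1 was lower in the deposited table (Ccne2, at background in the scanner files, where 6.45% were). For IL-4 in wild type, 5 were higher with median scaling (23.3% of all genes were) and 5 with no filter on dim probes (11.3%). With Ccne2, the deposited table gave 2 lower members for knockout against wild type with IL-4 (10.2% of all genes) and 2 for the difference between responses (7.69%). Between the controls, 3 were higher with quantile normalisation (E2f2, Pold1 and Tk1; 5.22% of all genes were), 2 higher (E2f2 and Pold1; 5.69%) and 2 lower (Mcm6 and Fen1; 9.75%) with a variance trend, and 2 lower with normexp (Mcm6 and Fen1; 9.49%). Under median scaling 0 were higher (2.82% of all genes) and 5 lower (Mcm6, Fen1, Gins4, Mcm2 and Uhrf1), where 30.9% of all genes were lower. That comparison gave 0 higher in the deposited table (1.13%), and 0 in either direction with no filter, with only the compared arrays, within slide 1 and with slide as a block, where 0.306% to 3.40% of all genes were called in a direction. With a minimum of 1 on the log2 scale, Pole2 was the 1 member higher in wild type with IL-4, and 0 were lower there. Under that minimum 0 were higher in the knockout and 0 higher for the difference. Knockout against wild type gave 0 higher with or without IL-4 and 0 lower between controls. Of all 16497 genes, 2089 passed that minimum in either direction in wild type, 580 in the knockout and 194 between controls. For knockout against wild type with IL-4 1597 passed, and for the difference 1756. Median scaling moved the median of all genes by 0.15 for IL-4 in the knockout and by 0.13 for the difference between responses. Between controls the shift was -0.18. The members' median stood 0.31 above that of all genes in the knockout response under either scaling. Either scaling shifts all genes of an array alike, so this gap was fixed in advance and tests nothing. Averaging all kept probes reversed Rpa1 between knockout and wild type with IL-4 (-0.049), where its probes disagree. The cause of each change of count was not tested.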

Other observations

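Regulators that act upstream of E2F were also read on these arrays. Of 23 tested regulators of RB and E2F, 12 rose and 2 fell with IL-4 in knockout cells, and 10 rose and 6 fell in wild-type cells. Cdkn2a, which encodes the inhibitors p16 and p19, measured -0.22 (not called) as the knockout response and fell by 2.88 on the log2 scale in wild type. The neighbouring inhibitor gene Cdkn2b fell by 0.49 in the knockout and by 2.00 in wild type. Other inhibitor genes went the other way in wild type: Cdkn1a (p21) gave 0.14 ± 0.11 in the knockout (adjusted p = 0.366) and rose by 2.18 in wild type (difference -2.04 ± 0.16, adjusted p = 4.56e-06). Cdkn2d and Cdkn1b were not called in the knockout (0.19 and -0.014) and rose by 0.84 and 0.33 in wild type. In the knockout Cdkn1c fell by 0.90 and Cdkn2c rose by 0.33, with 0.032 and -0.091, not called, in wild type. Ccnd2, cyclin D2, rose by 0.69 in the knockout and by 1.32 in wild type. Myc, a growth regulator, rose by 0.27 in the knockout and fell by 0.58 in wild type (difference 0.84 ± 0.072, adjusted p = 8.41e-06). Fbxw7, part of the ligase that degrades cyclin E and Myc, gave 0.013 ± 0.085 in the knockout (adjusted p = 0.918) and rose by 1.63 in wild type. Rbl1, an RB family member, rose by 0.61 in the knockout and by 0.27 in wild type.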
